A study of Mus musculus with 82 samples.

Results

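Hematopoietic stem cells (HSCs) renew themselves and feed all blood lineages, whereas common myeloid progenitors (CMPs) lie further down the same tree and are bound for granulocytes, monocytes, red cells and platelets. The comparison set the 4 mRNA-seq libraries of young HSCs (YHSC) against the 2 of young CMPs (YCMP), 6 of the 82 samples of the series, chosen by their labels alone. The series concerns chromatin folding, histone marks and transcription in HSCs of young and old mice and a shorter form of the transcription regulator BTAF1. All mice behind these libraries are wild type by the labels or the methods. The methods give C57BL/6J males of 3 to 4 months as the young animals and state that young HSC samples were pooled from several mice. YHSC were sorted as lineage-negative Sca-1+ c-Kit+ cells without CD34 and Flk2 and with CD150. The male C57BL/6J animals are stated for the study as a whole, no source used here gives the gate or pooling of the CMPs, and the CMP labels carry the young prefix and batch 1. Beside them stand 2 libraries each of young granulocyte-macrophage progenitors (YGMP) and megakaryocyte-erythroid progenitors (YMEP) of the CMP set, 8 of old HSCs (OHSC, mice of 24 to 26 months) of the YHSC set, and 2 of HSCs recovered from recipients after transplantation of old HSCs with a control shRNA. The transplanted HSCs were sorted with another gate (without CD48, with CD150 and the donor form of CD45) from irradiated female B6.SJL-Ptprca Pepcb/BoyJ recipients, so they differ from YHSC in donor age, host and gate as well as in library set.

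Stem cell identity rests on a group of transcription factors, among them HLF, MECOM and the HOX proteins, and on receptors at the cell surface through which the marrow niche signals. In the bone marrow most HSCs are quiescent: they rarely enter the cell cycle and keep inhibitors of it at work. Commitment to the myeloid lineage brings in the factors C/EBPα and IRF8, the enzymes of the primary granules such as myeloperoxidase, and fast division.

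The following 3 stretches of genome show the kind of control regions behind the groups described here. They are promoters taken from RefSeq on build GRCm38.p6, from 250 bases before to 50 after the start of the gene, and the capitals mark a short motif on either strand. Kif11 encodes a motor of the mitotic spindle and stands for the mitosis genes, with the cell cycle homology region TTTGAA in capitals (chr19:37376132-37376431, + strand). Ifit3 stands for the interferon response genes, with the core of the interferon-stimulated response element (GAAA, any 2 bases, GAAA) (chr19:34583279-34583578, + strand). Mpo encodes myeloperoxidase and stands for the granule genes, with the PU.1 motif GAGGAA (chr11:87793534-87793833, + strand).
Kif11: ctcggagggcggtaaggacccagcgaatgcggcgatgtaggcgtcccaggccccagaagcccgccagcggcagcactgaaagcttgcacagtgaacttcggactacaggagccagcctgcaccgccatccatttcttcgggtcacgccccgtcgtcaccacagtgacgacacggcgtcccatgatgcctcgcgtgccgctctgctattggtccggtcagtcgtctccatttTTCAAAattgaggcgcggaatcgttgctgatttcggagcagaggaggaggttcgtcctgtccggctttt
Ifit3: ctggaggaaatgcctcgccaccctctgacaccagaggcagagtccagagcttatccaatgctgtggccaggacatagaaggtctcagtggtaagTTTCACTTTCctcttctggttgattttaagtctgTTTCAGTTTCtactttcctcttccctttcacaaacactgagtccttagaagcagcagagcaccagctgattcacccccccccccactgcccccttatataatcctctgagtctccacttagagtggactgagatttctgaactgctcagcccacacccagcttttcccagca
Mpo: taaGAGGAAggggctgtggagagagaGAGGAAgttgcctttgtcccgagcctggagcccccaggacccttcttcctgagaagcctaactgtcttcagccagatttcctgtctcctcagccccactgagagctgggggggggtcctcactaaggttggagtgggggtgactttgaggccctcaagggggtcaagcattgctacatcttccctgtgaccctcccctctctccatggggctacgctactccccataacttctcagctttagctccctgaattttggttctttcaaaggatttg

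Over the RefSeq promoters of the genes tested, 15.7% of 13410 held TTTGAA, against 21 of the 29 mitosis genes with a promoter in the table. The CCAAT box, written CCAAT, was in 42.2% of all those promoters and in 23 of the 29. The interferon-stimulated response element core was in 3.88% of the promoters of tested genes and in 13 of 21 interferon response genes. GAGGAA was in 30.8% and in 15 of 21 granule genes, and the C/EBP motif TTGCNNAA was in 10.6% and in 4 of the 21. For 29 DNA replication genes, 7 held the E2F motif GGCGGGAA, which 4.2% of the promoters of tested genes held. These are matches of letters in a short window, given as a description.

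The YHSC libraries held 20475764 to 24122404 counts on genes and the YCMP libraries 36510850 and 35675043. The sets were made and sequenced apart and differ in ways that move with the cell type. All 92 ERCC spike-in rows are in the YHSC files, with 6.25% to 6.68% of their counts, and none is in the YCMP files. At least 1 count was on 37847 to 42062 genes in YHSC and on 23405 and 23257 in YCMP. Among genes with 1 to 20 counts, 42 to 43.9% of YHSC values were even, against 74.1% and 74.3% in YCMP and 71.4% and 72.5% in transplanted HSCs. Such an excess of even values is what counting both mates of a read pair singly would give, and whether YCMP was counted so was not tested. The labels name total RNA for YHSC and polyA RNA for YCMP, with the same total RNA kit, whereas the methods name a SMART-Seq cDNA kit and Nextera XT for the HSC libraries, so the RNA fraction of the sets is uncertain. Set and cell type cannot be told apart in the comparison, so a gene was called only past a 4-fold change, with an adjusted p below 0.05 by edgeR's quasi-likelihood test and with every YHSC library on the same side of both YCMP libraries. As in any bulk sample, fewer cells of a type and less RNA per cell cannot be told apart either.

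Of 22360 genes tested, 5827 (26.1%) were called higher in YHSC and 1433 (6.41%) higher in YCMP, and the median log2 difference over all of them, YHSC minus YCMP, was 0.33. With YCMP counts halved, an alternative chosen after seeing the data, the counts were 5321 and 1379. Most genes called higher in YHSC were faint: their median level was 0.919 CPM (counts scaled to the library's TMM-corrected total), and 2635 of them had no count in either YCMP library. Where the higher group reached 5 CPM on average, 9.4% of 12809 genes were higher in YHSC and 5.07% in YCMP. At 100 CPM or more, the order turned, with 2.89% of 3740 genes higher in YHSC and 5.4% higher in YCMP. Of 1577 processed pseudogenes tested, 601 (38.1%) were called higher in YCMP and 226 (14.3%) higher in YHSC. The counts of list members called are read against the shares over all genes, 26.1% toward YHSC and 6.41% toward YCMP. A first principal component that took 93.6% of the variance separated the groups, and the libraries correlated at 0.994 to 0.997 within a group and at 0.906 to 0.912 between groups (Pearson's r of log2(CPM + 1) across genes).

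Transcription factors of stem cells were higher in YHSC. Of 30 on the list, 17 were called higher in YHSC, beside 26.1% of all genes, and 0 higher in YCMP, with a median log2 difference of 2.70, beside 0.33 over all genes. Hlf, which encodes a bZIP factor of long-term HSCs (chromosome 11, 90336536 to 90390895, - strand), had 607, 563, 592 and 581 CPM in the YHSC libraries and 19.9 and 23.4 CPM in YCMP, a 27-fold difference (log2 difference 4.76, SE 0.07, adjusted p = 5.43e-19). Mecom, which encodes the zinc finger factor EVI1, had 308 to 335 CPM in YHSC and 9.09 and 7.46 CPM in YCMP, a 38.7-fold difference (adjusted p = 3.45e-19). The groups were far apart for both genes, and the 4 YHSC libraries lay within a narrow range.

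Larger still were the ratios of factors that were near 0 in CMPs. Sox18, a factor best known from vessels, had 17 to 18 CPM in YHSC and 0.197 and 0.133 CPM in YCMP (log2 difference 6.70, SE 0.23, adjusted p = 8.75e-15). For Klf12, a zinc finger repressor, YHSC had 31.8 to 36.2 CPM and YCMP 0.197 and 0.599 CPM, a log2 difference of 6.42 that became 7.41 without the second YCMP library. The homeobox gene Nkx2-3 had 79.9 to 90.7 CPM in YHSC, and 1.71 and 0.0666 CPM in the YCMP libraries. Its log2 difference of 6.58 became 10.22 without the first of these. Hoxb5, a homeobox gene used to mark long-term HSCs, had 13.9 to 18.3 CPM in YHSC against 0.262 and 0.533 CPM (log2 difference 5.34, SE 0.25). Other members stood at like levels in both: Gata2 had means of 433 and 476 CPM in YHSC and YCMP, Etv6 495 and 456, and Runx1 146 and 218.

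The stem cell markers moved the same way. Of 40 genes, 31 were called higher in YHSC, beside 26.1% of all genes, and 0 higher in YCMP, with a median log2 difference of 3.53, or 3.33 with the 2 genes that had no YCMP count set at their lower bound. Slamf1 and Ly6a, genes of the HSC gate, are among the 31 and differ by construction. Procr, the endothelial protein C receptor (chromosome 2, 155751117 to 155755471, + strand), had 175, 163, 183 and 181 CPM in YHSC (175 ± 8.88, SD, n = 4) and 2.13 and 1.73 CPM in YCMP. That is a 90.5-fold difference (log2 difference 6.50, SE 0.10, adjusted p = 3.36e-19). Further down the tree, YGMP had 1.3 and 0.972 CPM of Procr and YMEP had no count of it.

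Tgm2, a transglutaminase, had 405 to 549 CPM in YHSC and 3.02 and 3.53 CPM in YCMP, a 145-fold difference (adjusted p = 2.16e-06). Ndn, an imprinted gene that encodes the growth suppressor necdin, had 69.6 to 78 CPM in YHSC and 0.394 and 0.133 CPM in YCMP. Its log2 difference of 8.11 (SE 0.17) became 9.07 without the first YCMP library. Cpne8, a copine that binds membranes with calcium, had 30.1 to 36.4 CPM in YHSC and no count in YCMP, which makes it at least 340-fold higher in YHSC. Against the trend were the chemokine receptor Cxcr4, with means of 21.2 CPM in YHSC and 38 in YCMP, and Apoe, with 512 and 766 CPM. Of the 39 markers testable there, 29 were called higher and 1 lower when the transplanted HSCs, whose low counts are mostly even like those of YCMP, took the place of YHSC. In that fit 11.2% of 19198 genes were higher in HSCs and 4.09% higher in YCMP. It used the same YCMP libraries and is no independent repeat.

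**Figure D1:**
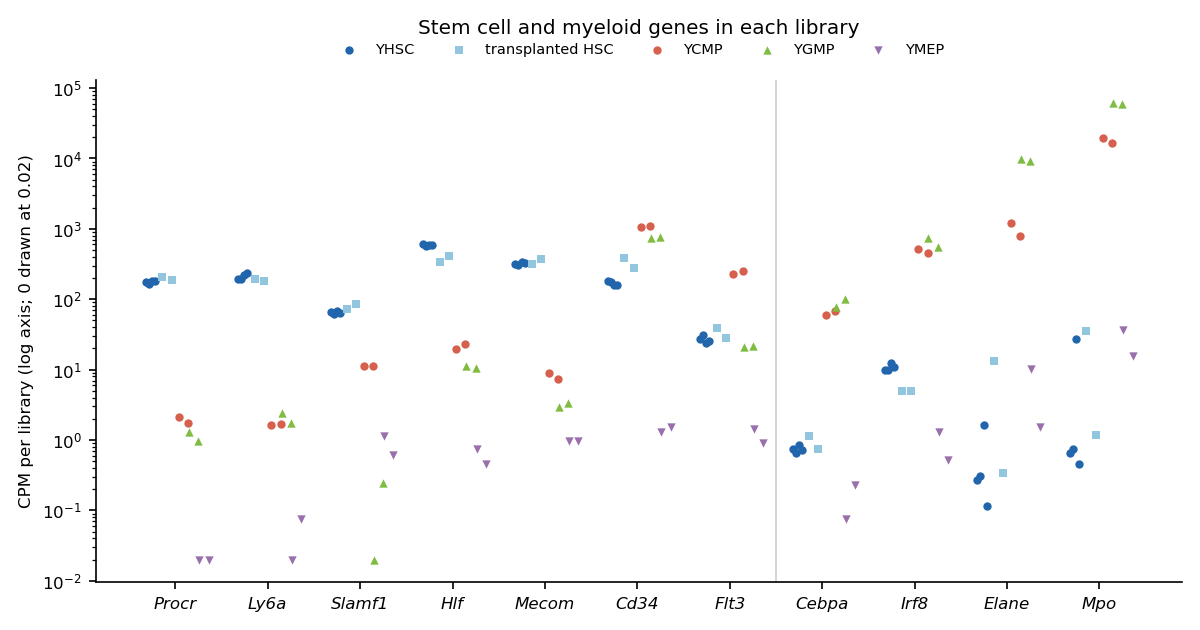
CPM of 11 genes in each library on a log axis, with 0 drawn at 0.02. Dots are YHSC (4 libraries) and YCMP (2), squares transplanted HSCs (2), triangles YGMP and YMEP (2 each). Procr, Ly6a, Slamf1, Hlf and Mecom lie higher in both kinds of HSC than in YCMP, and 1 YHSC library stands away from the others for Mpo and Elane.

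The genes of the HSC gate differ by construction and are given only as a check of the labels. Slamf1, which encodes CD150, had 62.4 to 68.7 CPM in YHSC and 11.3 and 11.4 CPM in YCMP. Ly6a, which encodes Sca-1, had 195 to 236 and then 1.64 and 1.7 CPM. Cd34 had 160 to 182 CPM in YHSC and 1070 and 1090 in YCMP, and Flt3, which encodes Flk2, 23.6 to 31.5 and then 226 and 256 CPM. Kit, on which both cell types depend, stood at 1640 to 1780 and at 1090 and 1080 CPM, a 1.58-fold difference. For these 5 genes the 4 YHSC libraries lay apart from the YCMP libraries, in the direction of the label where the gate names one. The list held 5 more. Itgam had 0.894 to 1.84 CPM in YHSC and 5.74 and 7.62 CPM in YCMP and was called higher in YCMP. Il7r, at 0.115 to 0.441 and at 0.197 and 0.732 CPM, overlapped between the groups, as did Ptprc, the gene of CD45, at 308 to 317 and at 319 and 315 CPM. Cd3e and Ly6g were too faint to test.

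Over all genes with at least 5 CPM in the higher group, with predicted genes and immunoglobulin segments left out, the 10 largest fitted log2 differences toward YHSC belonged to genes without a single count in either YCMP library. A fitted value over a group at 0 is no measure of size, so each is given as a lower bound, and genes with a few YCMP counts can have higher ratios than these bounds. Among them were Efna1, Fscn1, Cpne8, Sfrp1, Ocln, Unc45b, Smtnl1, Wfdc2 and Clec14a. Efna1, the membrane-bound ephrin-A1, had 33.9 to 37.3 CPM in the YHSC libraries and was at least 359-fold higher there. Sfrp1, a secreted WNT antagonist, had a mean of 32.5 CPM and was at least 328-fold higher, and Ocln, the tight junction protein occludin, was at least 313-fold higher. Clec14a, a lectin of vessel walls, was at least 187-fold higher. Fscn1, which bundles actin, was at least 349-fold higher in YHSC, with a median of 13.8 CPM in OHSC but 1.09 and 2.13 CPM in transplanted HSCs. The other genes named here had 1.63 to 52.3 CPM in transplanted HSCs.

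Myeloid granule genes were the mirror image. Of 25 genes, 0 were called higher in YHSC and 19 higher in YCMP, beside 6.41% of all genes, and the median log2 difference was -5.64. Mpo (chromosome 11, 87793581 to 87804413, + strand), whose printed promoter is set on a RefSeq start downstream of the GENCODE gene start given here, had 0.661, 0.75, 26.8 and 0.46 CPM in the YHSC libraries and 19700 and 16400 CPM in YCMP. The groups did not overlap, and the log2 difference was -11.33 (SE 1.57, adjusted p = 0.00256). The third YHSC library stood away from the other YHSC libraries, and without it the log2 difference was -14.82. With transplanted HSCs in place of YHSC, 0 of 25 granule genes were called higher in HSCs and 16 higher in YCMP, beside 4.09% of all genes in that fit, with a median of -5.34. Mpo stood at 35.8 and 1.16 CPM there, and neither Mpo (log2 difference -9.86) nor Elane (-7.13) passed the test. In the same library the mature neutrophil genes held 0.0207% of counts, against 0.000669%, 0.000747% and 0.0115% in the other YHSC libraries, and their part in the value was not tested.

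Elane, neutrophil elastase, had 0.115 to 1.65 CPM in YHSC and 1230 and 786 CPM in YCMP (log2 difference -10.77, SE 0.53, and -12.07 without the third YHSC library). Ctsg, the protease cathepsin G, had 0.0389 to 2.16 CPM and then 942 and 791 CPM (log2 difference -10.46, SE 0.61, and -12.75 without that library). F13a1, the A chain of clotting factor XIII, had 0.536 to 0.93 CPM in YHSC and 899 and 738 CPM in YCMP, and the third YHSC library was not apart for it (log2 difference -10.13, SE 0.14, adjusted p = 3.19e-11). Members without a call included the lysozyme gene Lyz2, with means of 383 CPM in YHSC and 262 in YCMP, and the granule proteoglycan Srgn, with 480 and 622 CPM. The proteinase gene Prtn3 was called, yet from a mean of 117 CPM in YHSC to 963 in YCMP.

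Other genes among the 10 largest changes toward YCMP were Tifab, Atp8b4, Mcpt8 and Ccr2. Tifab, an adaptor of innate signaling, had 0.169 to 0.397 CPM in YHSC and 232 and 201 CPM in YCMP (log2 difference -9.65, SE 0.12). Ccr2, the monocyte chemokine receptor, had 0.192 to 0.882 CPM in YHSC and 133 and 139 CPM in YCMP, and its log2 difference of -8.40 became -9.04 without the second YHSC library. Atp8b4, a lipid flippase, had 0.575 to 1.52 CPM in YHSC and 519 and 447 CPM in YCMP. Mcpt8, the basophil protease, had 0 to 0.132 CPM in YHSC and 41.8 and 37.7 CPM in YCMP. The remaining pair at the top, the processed pseudogenes Rps19-ps1 and Rps19-ps2, is described with the RNA classes.

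Regulators and receptors of the myeloid lineage leaned toward YCMP. Of 25, 9 were called higher in YCMP, beside 6.41% of all genes, and 2 higher in YHSC, beside 26.1%, and the median log2 difference was -1.74. Cebpa, the lineage-determining factor C/EBPα (chromosome 7, 35119293 to 35121928, + strand), had 0.662 to 0.846 CPM in YHSC and 60.3 and 68 CPM in YCMP, an 85.7-fold difference (log2 difference -6.42, SE 0.12, adjusted p = 5.34e-18). Irf8, a factor of monocytes and dendritic cells, had 9.88 to 12.6 CPM in YHSC and 512 and 457 CPM in YCMP, a 44.8-fold difference. Cx3cr1, the fractalkine receptor, and Tyrobp, an adaptor of activating receptors, had log2 differences of -6.36 and -5.43. In contrast Spi1, which encodes PU.1, had means of 66 CPM in YHSC and 195 in YCMP, under the 4-fold limit. The HSC side held Id2, an inhibitor of bHLH factors, with 20.4 to 21.9 CPM against 3.8 and 5.99 CPM, whose log2 difference of 2.10 became 1.81, under the limit, without the first YCMP library, and the faint Irf4, with 0.888 to 2.38 CPM against 0.197 and 0 CPM. The ratio of Irf4 rested on 6 YCMP counts and was 13.6, with a 95% exact Poisson interval of 4.64 to 65.8.

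Genes of basophils, mast cells and eosinophils followed the granule genes. Of 16 genes 10 were abundant enough to test, and 9 were called higher in YCMP, beside 6.41% of all genes, and 0 higher in YHSC (median log2 difference -5.79). Cpa3, carboxypeptidase A3 of mast cells, had 1.23 to 2.95 CPM in YHSC and 293 and 309 CPM in YCMP, a 154-fold difference. Hdc, which makes histamine, had 0.926 to 1.35 CPM and then 155 and 133 CPM (adjusted p = 3.45e-19). In YMEP Cpa3 was at 0.528 and 0.678 CPM, and in YGMP at 181 and 321 CPM.

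Of 30 erythroid genes, 4 were called higher in YHSC, beside 26.1% of all genes, and 4 higher in YCMP, beside 6.41%. With transplanted HSCs in place of YHSC, 2 of 29 were called higher in HSCs and 13 higher in YCMP, beside 11.2% and 4.09% of all genes in that fit, and the median log2 difference was -1.18 in place of 0.36. Gata1, the master regulator of red cells and platelets, had 10.6 to 14.1 CPM in YHSC and 119 and 142 CPM in YCMP, a 10.4-fold difference (log2 difference -3.37, SE 0.10, adjusted p = 7.53e-13). Klf1, the factor that turns on adult globin, had 9.09 to 14.6 CPM and then 89.1 and 85.5 CPM. The transferrin receptor Tfrc and the transporter Tspo2 were the others higher in YCMP, and the log2 difference of Tfrc, -2.03, became -1.95 without the third YHSC library. Those higher in YHSC were faint red cell genes: Hbb-bt had 8.74 to 10.9 CPM against 0.722 and 1.13 CPM, and Ank1, Cldn13 and Slc4a1 stayed below 8 CPM in YHSC. These calls were not stable. The log2 difference of Ank1, 2.27, was 3.00 without the second YCMP library and 1.78, under the limit, without the first. With OHSC and with transplanted HSCs in place of YHSC, the log2 difference of Ank1 was 1.37 and 0.45. That of Cldn13, 2.08, was 2.98 without the first YCMP library, 1.53 without the second and 1.98 without the first YHSC library, and it was -0.48 with OHSC and -7.43 with transplanted HSCs in place of YHSC. For Slc4a1 the ratio was 6.37 (2.18 to 30.9) on 6 YCMP counts, all in the second library, and the fitted call was lost without the first. All erythroid genes together stood at 2360 to 2620 CPM in YHSC, 1880 and 1960 CPM in YCMP and 26400 and 27200 CPM in YMEP.

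Of 23 megakaryocyte and platelet genes tested, 4 were called higher in YHSC and 4 higher in YCMP, beside 26.1% and 6.41% of all genes. Mmrn1, multimerin of platelet granules, had 793 to 840 CPM in YHSC and 47.3 and 43 CPM in YCMP, an 18.3-fold difference (adjusted p = 4.17e-20). Vwf, von Willebrand factor, had 293 to 330 CPM and then 65.1 and 44.4 CPM. On the CMP side were Serpine2, F2rl2, the platelet chemokine Pf4, with means of 25.5 CPM in YHSC and 154 in YCMP, and the integrin Itga2b (CD41), with 95.2 and 449 CPM. The calls of Pf4 and Itga2b were lost with transplanted HSCs in place of YHSC (log2 differences -1.86 and -1.58), and that of Itga2b also with OHSC. Of the 4 genes on the HSC side of this list, 3 are also on the stem cell marker list, Mmrn1 and Vwf among them.

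Of 20 lymphoid priming genes, 5 were called higher in YHSC, near the 26.1% of all genes, and 5 higher in YCMP, beside 6.41%. Flt3, a gene of the HSC gate, is among the 5 higher in YCMP and differs by construction. Il7r, also of the gate, was not called. With transplanted HSCs in place of YHSC, 1 of 17 was called higher in HSCs and 5 higher in YCMP, beside 11.2% and 4.09% of all genes in that fit. Dntt, the DNA polymerase that adds bases at V(D)J joints, had 0.0777, 0.397, 1.52 and 0.192 CPM in YHSC and 22.2 and 31.9 CPM in YCMP (log2 difference -5.66, SE 0.70, and -6.94 without the third YHSC library). The genome organizer Satb1 had a mean of 14.2 CPM in YHSC and 110 in YCMP. Of the 5 higher in YHSC only Mn1 and Blnk exceeded 5 CPM there on average, with means of 13 and 5.76 CPM, and Blnk is also a B cell gene.

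Division genes were lower in YHSC. Of 34 mitosis genes, 0 were called higher in YHSC and 32 higher in YCMP, beside 6.41% of all genes, with a median log2 difference of -3.50. The summed level of the list was 637 to 722 CPM in YHSC, 6290 and 6420 CPM in YCMP and 1420 and 1820 CPM in transplanted HSCs. Aurkb, aurora kinase B of the chromosomal passenger complex, had 10.7 to 12.7 CPM in YHSC and 236 and 249 CPM in YCMP, a 20.6-fold difference (log2 difference -4.36, SE 0.07, adjusted p = 3.12e-19). Kif11, whose promoter is printed above with its TTTGAA motif, had 16.7 to 20.7 CPM and then 315 and 331 CPM, a 16.8-fold difference. The members without a call were the kinesin gene Kif23, with means of 36 CPM in YHSC and 122 in YCMP, and the securin gene Pttg1, with 44.9 and 38.3 CPM.

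DNA replication genes changed in the same direction by less. All 34 passed the test toward YCMP at some fold, and 21 of them, beside 6.41% of all genes, were called, with a median log2 difference of -2.06. Rrm2, the regulated subunit of ribonucleotide reductase, had 17.1 to 29.9 CPM in YHSC and 406 and 393 CPM in YCMP, a 17.1-fold difference (adjusted p = 4.79e-05). Mcm10, which helps to start replication forks, had 9.54 to 13.2 CPM and then 136 and 134 CPM. Among the 6 subunits of the MCM helicase, Mcm2, Mcm3 and Mcm5 were past 4-fold and Mcm4, Mcm6 and Mcm7 lay between log2 differences of -1.84 and -1.98. In transplanted HSCs set against the same YCMP libraries, 13 of 34 mitosis genes and 2 of 34 replication genes were called higher in YCMP, beside 4.09% of all genes in that fit, with median log2 differences of -1.93 and -1.35. The replication count is near that share.

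**Figure D2:**
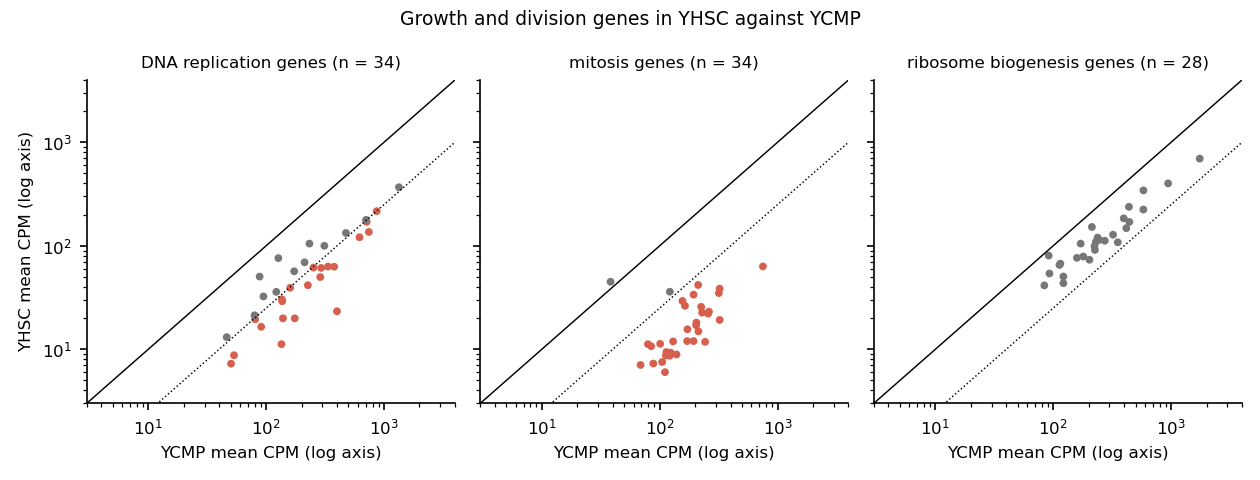
Mean CPM in YHSC (4 libraries) against mean CPM in YCMP (2 libraries), both on log axes, for each gene of 3 lists. The solid line marks equal levels and the dotted line 4-fold higher levels in YCMP. Red dots are called genes: 21 of 34 replication genes, 32 of 34 mitosis genes and 0 of 28 ribosome biogenesis genes.

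Among 24 regulators of G1, 7 were called higher in YCMP, beside 6.41% of all genes, and 2 higher in YHSC, beside 26.1%, and the inhibitors fell on both sides. With transplanted HSCs in place of YHSC, 4 of 25 were called higher in HSCs and 2 higher in YCMP, near the 11.2% and 4.09% of all genes in that fit, and the median log2 difference was -0.28 in place of -0.91. Cdkn1c, which encodes the quiescence inhibitor p57 (chromosome 7, 143458339 to 143461050, - strand), had 84.8, 75.4, 80.1 and 79.6 CPM in YHSC and 0.328 and 0.899 CPM in YCMP. Its log2 difference was 7.02 (SE 0.17, adjusted p = 1.36e-14), and 7.90 without the second YCMP library. Cdkn1a, which encodes the inhibitor p21, went the other way, with 3.51 to 4.63 CPM in YHSC and 34.6 and 40.8 CPM in YCMP (log2 difference -3.21, SE 0.13). Cdk6, a G1 kinase, had 88.3 to 120 CPM in YHSC and 743 and 756 CPM in YCMP, a 7.18-fold difference whose call was lost with transplanted HSCs (log2 difference -1.71). The E cyclins Ccne1 and Ccne2, the inhibitor Cdkn2c and the factors E2f1 and E2f2 were the other genes called higher in YCMP. Of these, Ccne2 lost its call with transplanted HSCs (-1.45), and the log2 difference of Cdkn2c, -2.61, was -0.89 with OHSC and 0.05 with transplanted HSCs. The MYC family was divided: Mycn had 354 to 432 CPM in YHSC and 59.6 and 87.5 CPM in YCMP (log2 difference 2.42, SE 0.21), while Myc had means of 256 and 957 CPM, a log2 difference of -1.90.

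Growth genes had negative log2 differences, nearly all below the limit, and abundant genes at large leaned the same way. The median over all genes, 0.33, was -0.57 over those with at least 100 CPM in the higher group. All 28 ribosome biogenesis genes passed the test toward YCMP, at log2 differences from -1.71 to -0.19 and a median of -1.15, and none reached 4-fold. The 26 nuclear genes of the respiratory chain likewise all passed toward YCMP (median -1.13), and only Cycs, cytochrome c, passed 4-fold. Its levels were 31.3 to 35.2 CPM in YHSC and 210 and 194 CPM in YCMP, and its call was lost with transplanted HSCs (log2 difference -1.51). Because the sets were made apart, differences below 4-fold are given without a call.

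Glycolysis genes differed little as a list (median log2 difference -0.55), with 2 of 22 called higher in YHSC, beside 26.1% of all genes and 9.4% of those with at least 5 CPM in the higher group, and 1 higher in YCMP, near the 6.41%. Ldhb, the B chain of lactate dehydrogenase, had 146 to 156 CPM in YHSC and 16.5 and 13.4 CPM in YCMP, a 10.1-fold difference (adjusted p = 6.55e-17), while the A chain gene Ldha had means of 855 and 1880 CPM. Aldoc, aldolase C, had 31.8 to 34.3 CPM and then 3.35 and 1.6 CPM (log2 difference 3.73, SE 0.20, and 4.36 without the first YCMP library), while Aldoa had means of 525 and 681 CPM. Pgam1 alone of this list was called higher in YCMP, and not with transplanted HSCs (-1.53). Of 11 heme synthesis genes, 1 was called higher in YCMP, near the 6.41% of all genes: Alas1, the rate-limiting enzyme outside red cells, had 47.2 to 52.8 CPM in YHSC and 375 and 365 CPM in YCMP, a 7.48-fold difference. None of 21 cholesterol synthesis genes was called by edgeR or by DESeq2, and 16 of them passed the edgeR test at some smaller fold, 7 toward YHSC and 9 toward YCMP.

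**Figure D3:**
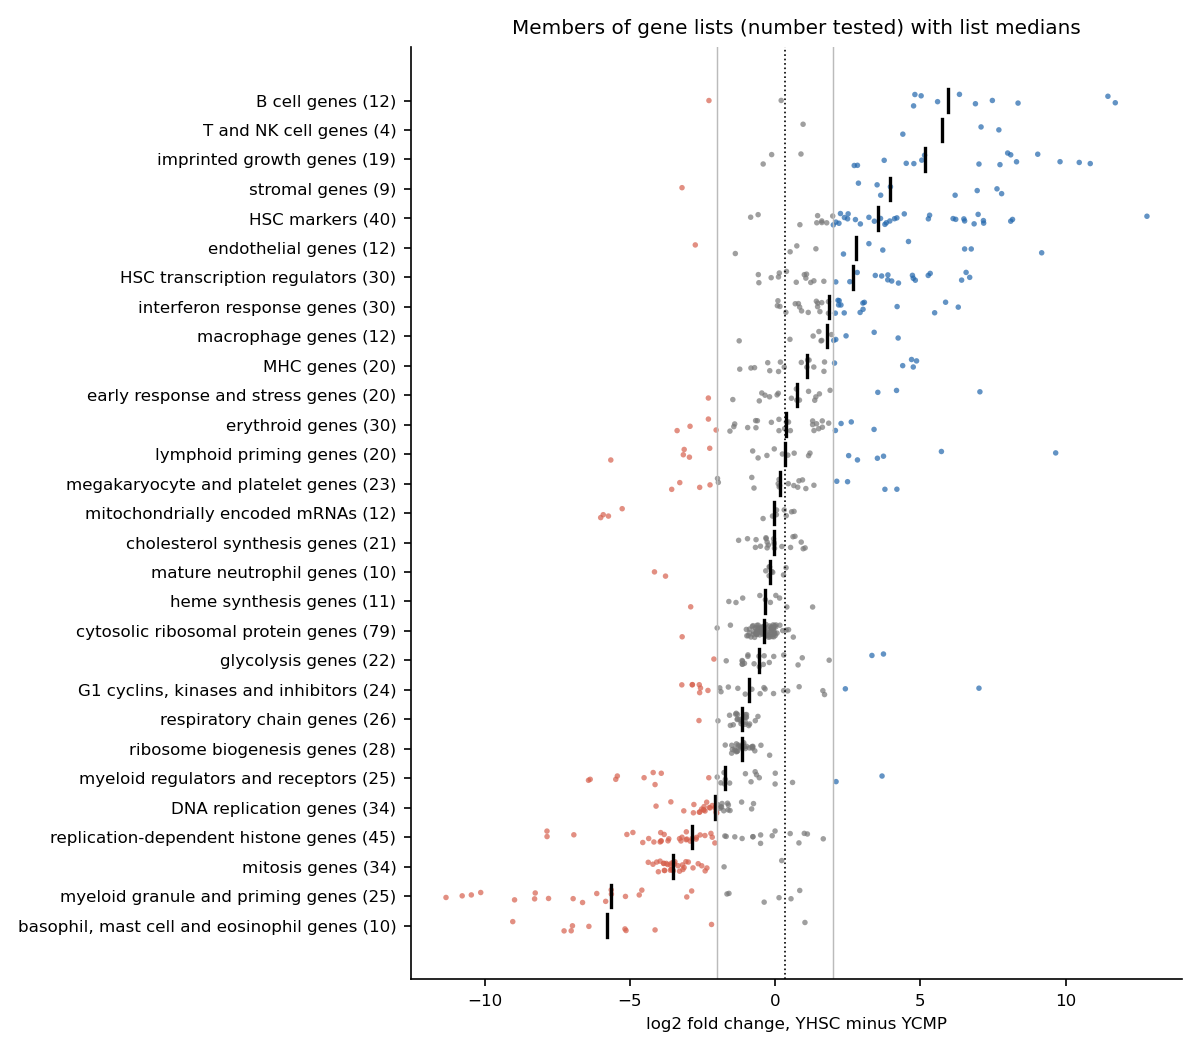
Log2 difference, YHSC minus YCMP, of each tested member of 29 gene lists. Bars are list medians, grey lines the 4-fold limits and the dotted line the median of 0.33 over all genes tested, and blue and red dots lie beyond 4-fold. Mitosis and granule genes lie to the left, stem cell markers and imprinted genes to the right, and ribosome biogenesis genes between the limits.

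Interferon response genes were higher in YHSC. Of 30 genes, 14 were called higher in YHSC, beside 26.1% of all genes, and 0 higher in YCMP, and the median log2 difference was 1.84. Ifitm1 and Ifitm3 of this list are also on the stem cell marker list. Iigp1, a GTPase that attacks the vacuoles of parasites, had 163, 220, 226 and 256 CPM in YHSC and 2.62 and 4.76 CPM in YCMP, a 58.5-fold difference (log2 difference 5.87, SE 0.38, adjusted p = 0.000149). Gbp6, a guanylate-binding protein, had 22.1 to 32.5 CPM and then 0.295 and 0.366 CPM. Ifit3, whose promoter with its pair of response element matches is printed above, had 7.89 to 13.1 CPM in YHSC and 0.0656 and 0.399 CPM in YCMP, a log2 difference of 5.49 that became 7.24 without the second YCMP library. Ifi44 had 99.2 to 124 CPM and then 6.95 and 4.93 CPM. The whole list summed to 3270 to 3830 CPM in YHSC, 3320 and 3370 CPM in transplanted HSCs and 1360 and 1240 CPM in YCMP.

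Of 20 MHC genes, 5 were called higher in YHSC and 0 higher in YCMP, beside 26.1% of all genes toward YHSC, 9.4% of those with at least 5 CPM in the higher group and 2.89% of those with at least 100 CPM. They were Cd74, H2-Eb1, H2-Aa and Ciita of the class II arm, which presents peptides to CD4+ T cells, and H2-Q6. H2-Aa had 138 to 180 CPM in YHSC and 5.12 and 7.52 CPM in YCMP, a 26-fold difference (adjusted p = 2.94e-06), and Cd74, the invariant chain, had 412 to 620 CPM and then 14.8 and 20.8 CPM. Ciita, the transactivator of class II genes, had 14.8 to 21.7 CPM and then 0.656 and 1.07 CPM. B cells also express class II genes, and the lineage antibodies of the HSC sort include one to B220, which B cells carry. Of 12 B cell genes 9 were called higher in YHSC, beside 26.1% of all genes, and 1, Ighm, higher in YCMP, beside 6.41%. The list summed to 142, 155, 296 and 1000 CPM in the YHSC libraries and to 358 and 339 CPM in YCMP, so the groups overlapped, and its part in the class II values was not tested. In transplanted HSCs the B cell list stood at 29.3 and 27.8 CPM, and H2-Aa was at 135 and 175 CPM and Cd74 at 384 and 522 CPM. With them in place of YHSC, 2 B cell genes were testable. Of these, 0 were called higher in HSCs and 1 higher in YCMP, beside 11.2% and 4.09% of all genes in that fit. Of the class I genes, H2-K1 had means of 2580 CPM in YHSC and 1190 in YCMP, and H2-D1 2600 and 2090 CPM.

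Early response genes, which dissociation and sorting can induce, were split. Of 20 tested, 3 were called higher in YHSC and 1 higher in YCMP, beside 26.1% and 6.41% of all genes. Klf2, a quiescence factor of lymphocytes, had 4.16 to 8.85 CPM in YHSC and 0.394 and 0.699 CPM in YCMP, and was not called with transplanted HSCs (log2 difference 0.93). Egr2 and Egr3 were below 1 CPM in every library. Fos had 0.846 to 1.46 CPM in YHSC and 3.15 and 7.72 CPM in YCMP, and its log2 difference of -2.30 became -1.52, under the limit, without the second YCMP library.

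Imprinted genes that regulate growth were higher in YHSC. Of 19 tested, 16 were called higher in YHSC, beside 26.1% of all genes, and 0 higher in YCMP, with a median log2 difference of 5.15, or 4.52 with the 6 genes that had no YCMP count set at their lower bound. With transplanted HSCs 8 of 12 were called higher in HSCs, beside 11.2% of all genes in that fit, and the median was 2.93. Besides Cdkn1c and Ndn, Igf2r, the receptor that clears IGF2, had a mean of 60 CPM in YHSC and 2.18 CPM in YCMP, and Grb10, an adaptor that dampens insulin signals, had 200 and 28 CPM. Meg3, a noncoding RNA of the Dlk1 domain, had 40.9 to 64.2 CPM in YHSC and 6 counts in YCMP, all in the second library. Its ratio was 552 (189 to 2680, a 95% exact Poisson counting interval, with YCMP counts taken in pairs). Rian, from the same domain, had 6.37 to 11.1 CPM in YHSC and was at least 88.2-fold higher there. In transplanted HSCs Meg3 stood at 0.189 and 0 CPM and Rian at 0.0473 and 0 CPM, while Cdkn1c kept 37.8 and 39 CPM, and OHSC had a median of 42.3 CPM of Meg3.

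**Figure D4:**
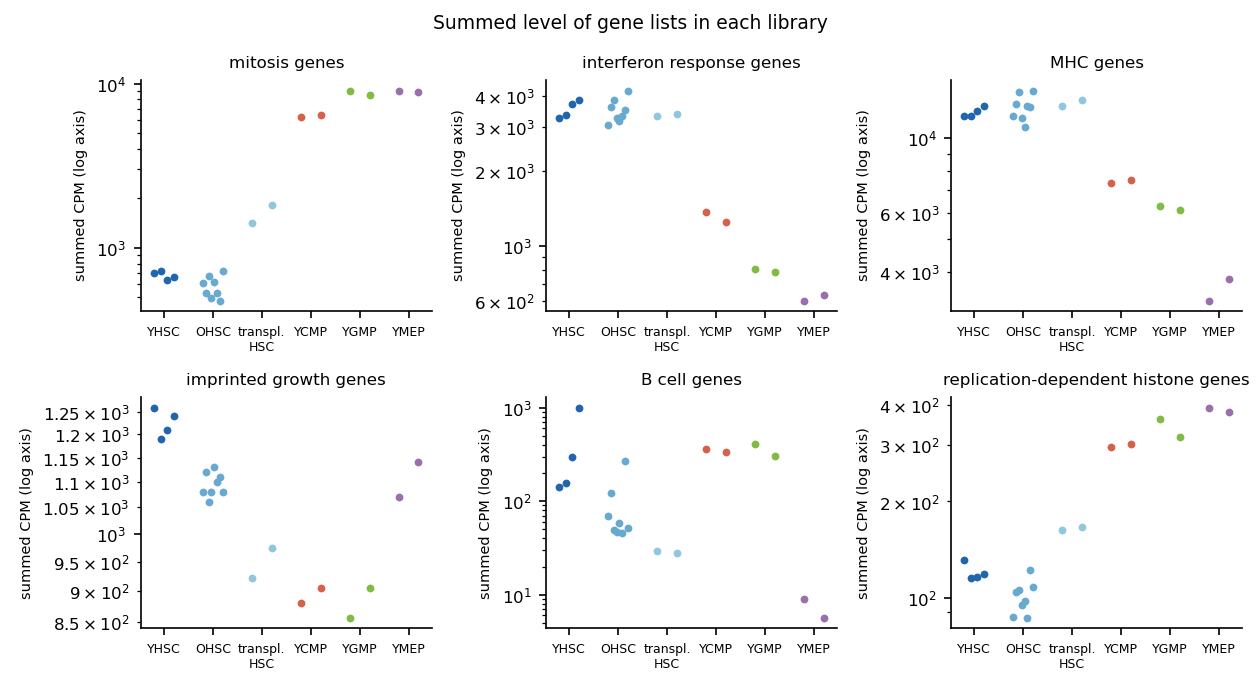
Summed CPM of 6 gene lists in each library on log axes, for YHSC (4 libraries), OHSC (8), transplanted HSCs (2), YCMP, YGMP and YMEP (2 each). Mitosis genes lie lowest in YHSC and OHSC and highest in the progenitors. Interferon response and MHC genes lie at like levels in the 3 kinds of HSC and lower in YCMP, and the B cell list is highest in the fourth YHSC library.

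Some RNA classes differed between the sets of HSC libraries as much as between YHSC and YCMP. The pseudogenes Rps19-ps1 and Rps19-ps2, at the top of the changes toward YCMP, had no count in any YHSC library, 15.6 and 17.2 CPM in YCMP, and 16.6 and 16.8 CPM in transplanted HSCs. They carry identical values and share the sequence of an expressed gene, so their counts are uncertain. Of 12 mitochondrially encoded mRNAs tested, 4 were called higher in YCMP, mt-Co2, mt-Co3, mt-Atp6 and mt-Atp8, beside 6.41% of all genes. The list median was -0.02, and as a share of all counts the list was higher in YHSC, at 0.594 to 0.719% against 0.5% and 0.495% in YCMP. For mt-Co3, YHSC had 0.651 to 0.855 CPM, YCMP 44.1 and 45 CPM and transplanted HSCs 57.7 and 56.7 CPM. All 4 reversed when transplanted HSCs replaced YHSC.

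Replication-dependent histone mRNAs, which end without a poly(A) tail, were called higher in YCMP for 30 of 45 tested genes, beside 6.41% of all genes, and higher in YHSC for 0. Their sum was 115 to 131 CPM in YHSC, 163 and 166 CPM in transplanted HSCs and 296 and 303 CPM in YCMP. Many members are near-identical copies, whose counts are uncertain, and the RNA fraction of the sets is uncertain, as given above. Cytosolic ribosomal protein genes held 2.66 to 2.79% of YHSC counts and 2.75% and 2.66% of YCMP counts (exact permutation test, two-sided p = 0.8). With 15 arrangements of the 6 libraries, that test cannot go below 0.133, the value it gave for the share of mitosis genes, 0.0693 to 0.08% in YHSC and 0.525% and 0.541% in YCMP.

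Markers of other cell types were read beside these results, and their part in them was not tested. Of 6 sex-linked genes, the Y-linked Ddx3y, Eif2s3y, Kdm5d and Uty had 42.6 to 132 CPM in every YHSC and YCMP library and were not called. Xist, the RNA that silences an X chromosome in females, and its antisense Tsix were called higher in YHSC, where Xist had 2.99 to 6.13 CPM and Tsix 2.07 to 3.96 CPM, against 0.558 and 0.399 and then 0.0656 and 0.533 CPM in YCMP. They overlap, so their counts are uncertain. Ms4a1, which encodes CD20 of B cells, had 8.2, 10.6, 22.9 and 21.7 CPM in YHSC, no count in YCMP or transplanted HSCs and a median of 0.671 CPM in OHSC. Igkc and Jchain, which plasma cells make in quantity, stood at 734 and 226 CPM in the fourth YHSC library and at no more than 32.1 and 0.719 CPM in the others. Ighm was higher in YCMP, with 34 to 91 CPM in YHSC and 314 and 293 CPM in YCMP, a call that was lost when either YCMP library was left out. Endothelial genes were called higher in YHSC for 7 of 12, stromal genes for 8 of 9 tested, macrophage genes for 5 of 12 and T and NK cell genes for 3 of 4 tested, beside 26.1% of all genes. Cdh5 and Tie1 of the endothelial list are also on the stem cell marker list. The endothelial Plvap and the stromal Pdgfrb were called higher in YCMP, at log2 differences of -2.75 and -3.20. With transplanted HSCs, 3 of 9 endothelial, 2 of 4 stromal, 2 of 12 macrophage and 1 of 3 T and NK cell genes were called higher in HSCs, beside 11.2% of all genes in that fit. In the same lists 2, 1, 1 and 2 genes were called higher in YCMP, beside 4.09%. As shares of all counts, the endothelial list held 0.0561 to 0.0584% in YHSC and 0.022% in both YCMP libraries, the macrophage list 0.0128 to 0.016% against 0.00303% and 0.00343%, and the stromal list 0.00291 to 0.00359% against 0.00922% and 0.0107%. Col3a1, Dcn, Lepr, Cdh5 and Cd3g were below 1.3 CPM in every YHSC library. Of the 12 mature neutrophil genes, 2 of 10 tested were called, Mmp8 and Cxcr2, both higher in YCMP, beside 6.41% of all genes. The log2 difference of Mmp8 was -4.15, and -4.80 without the second YHSC library.

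The promoters of called genes carried histone marks in YHSC as follows, a readout that the calls did not use. Counted were 11032 protein-coding genes with at least 5 CPM in the higher group and a RefSeq symbol. H3K4me3, the mark of active and poised promoters, had a promoter peak at 92.3% of 1007 genes called higher in YHSC, 76.8% of 499 called higher in YCMP and 95.6% of the 9526 others. For H3K27ac, a mark of active promoters and enhancers, the shares were 83.2%, 68.9% and 92.5%. H3K27me3, laid down by Polycomb, was at 31.7%, 32.5% and 6.94%. Both called groups had a Polycomb peak more often by count than the genes without a call, and the shares were not tested.

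**Figure D5:**
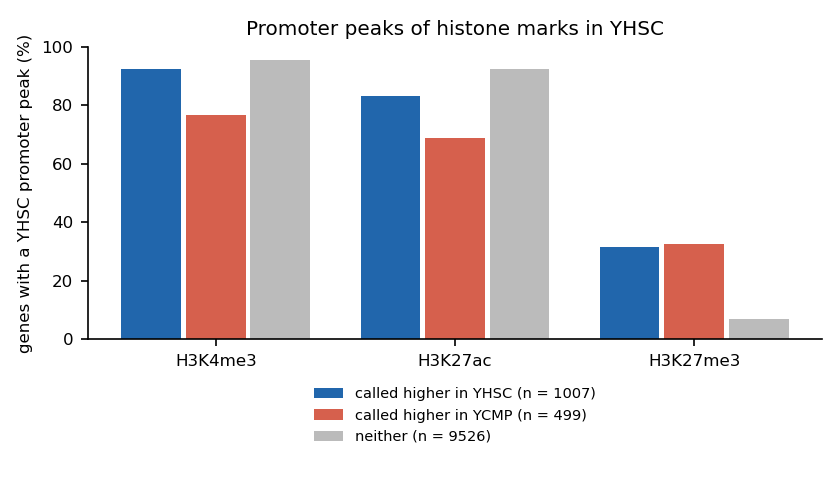
Share of protein-coding genes with a promoter peak of each histone mark in YHSC, for genes called higher in YHSC (n = 1007), called higher in YCMP (n = 499) and neither (n = 9526). H3K4me3 and H3K27ac peaks are least frequent at the genes higher in YCMP (76.8% and 68.9%), and H3K27me3 peaks stand at 31.7% and 32.5% of called genes against 6.94% of the others.

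Single genes differed within these groups. At Procr the YHSC replicates had H3K4me3 signals of 16.8 and 17 and H3K27ac signals of 3.62 and 3.16, with no H3K27me3 peak. Of 30 interferon response genes, 28 had H3K4me3, 28 had H3K27ac and 0 had H3K27me3, and Ifit3 had no promoter peak of any of the 3 marks. Mpo had neither active mark and H3K27me3 signals of 0.767 and 0.821. A peak counts here only where it was annotated to the gene's name at its start. Ly6a and Klf12, both expressed in YHSC, had no peak of the 3 marks either, so a missing peak need not mean an unmarked promoter. Cebpa carried all 3, with H3K4me3 at 15.9 and 15.5, H3K27ac at 1.65 and 1.32 and H3K27me3 at 0.916 and 0.886. Of the 34 mitosis genes, 34 had an H3K4me3 peak and 31 an H3K27ac peak in YHSC, near the 94.4% and 90.5% of all genes counted. At Kif11 H3K4me3 stood at 22 and 26.4. Of 25 granule genes, 12 had H3K4me3 and 7 H3K27me3, the latter beside 10.4% of all genes counted.

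Btaf1, the gene the series is about (chromosome 19, 36926079 to 37012752, + strand), had 96.9, 74.8, 78.8 and 97 CPM in YHSC and 212 and 229 CPM in YCMP. The groups did not overlap, and the 2.54-fold difference (log2 difference -1.34, SE 0.11, adjusted p = 1.07e-05) lay under the limit for a call. Gene counts do not separate its forms. Transplanted HSCs had 160 and 164 CPM and YMEP 525 and 548 CPM.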

How the data were processed

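Gene expression was compared between 4 YHSC and 2 YCMP mRNA-seq libraries, with 14 other libraries read for levels and alternatives. The deposited RNA-seq tables hold whole-number counts of reads per gene, which the authors obtained with cutadapt, STAR (genome mm10, GENCODE annotation) and featureCounts. No source used here states how strand or multi-mapped reads were handled. For the histone marks, the deposited value is a signal per peak and library, scaled by the authors to a common read number. The authors' fold change columns there hold old to young ratios and were not used. Another 4 columns, of old samples, matched no sample and were left out.

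ERCC rows were dropped. Counts were filtered with filterByExpr, scaled by TMM and tested with edgeR 4.0.16 in R 4.3.3 (robust quasi-likelihood test, no covariate, Benjamini-Hochberg adjustment over all genes tested). The SE is the log2 difference divided by the square root of F. Summaries used Python 3.11.15. A group at 0 was set to 3 counts over the YHSC group (0.0306 CPM) or, because YCMP values are mostly even, 6 over the YCMP group (0.0991 CPM). Bounds and intervals cover counting error only, since reads carry no molecular identifiers. Gene positions are from GENCODE on GRCm38. A promoter peak is one annotated at a gene's start and found in YHSC, the strongest per gene.

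Members and lists were chosen with earlier results of these data known. Named genes are Procr, Slamf1, Mpo, the genes of the gate, up to 4 called genes per list and direction, the 10 largest called changes each way at 5 CPM or more (without predicted genes and immunoglobulin segments) and Btaf1. Other genes, Hlf, Mecom and uncalled members included, were named after their values were seen. Some genes that the rule takes are not reported here. In counts simulated for this comparison, 98.5% of 200 genes changed 8-fold were recovered among 21032 genes, with 1 false call. The changed genes were drawn above a minimum mean count, and the others had equal means in both groups. The simulation therefore gives no error rate for faint genes or for differences between the library sets. No library duplicated another. Nothing states that the YCMP libraries came from separate mice, so p-values measure only the spread between these samples. Alternatives were DESeq2 1.42.0 and other scalings, filters, fold limits and libraries.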

Additional observations from a re-analysis of the deposited data

Results flagged for a closer look

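Within the 4 YHSC libraries, 86 quantities (the summed shares of the gene lists and the levels of named genes) were searched for a library far from the others, and 6 stood out. Chance alone flags about 1 in 20 such groups. The third YHSC library was far above the others for 3 granule genes, with 26.8 CPM of Mpo, 1.65 CPM of Elane and 2.16 CPM of Ctsg. The fourth YHSC library was the highest for the share of lymphoid priming genes, at 0.0804% of counts against 0.0542 to 0.0561% in the other YHSC libraries, and for Cx3cr1, at 0.498 CPM. Its share of B cell genes was also the highest, at 0.108% against 0.0153 to 0.0322%. The second YHSC library was the lowest for Mmrn1, at 793 CPM against 834 to 840 CPM. Each of these genes stayed apart from YCMP in all 4 YHSC libraries. The share of lymphoid priming genes overlapped between the groups, with YCMP at 0.0685% and 0.0723%.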

How the results depend on the processing

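The counts of called genes moved with the libraries, the genes tested and the fold limit. With transplanted HSCs in place of YHSC, 2143 genes were higher in HSCs and 785 higher in YCMP, and 191 of the list genes were called in place of 288. With YHSC and transplanted HSCs together, a choice made after seeing the data, the counts were 2922 and 679, and with protein-coding genes only, also a later choice, 3761 and 613. Without a filter on low counts 10839 genes were higher in YHSC, and with at least 1 CPM in 2 libraries 3139. A fold limit of 2 gave 3343 genes higher in YCMP and a limit of 8 gave 754. DESeq2 gave 5823 and 1439. Leaving out 1 library at a time gave 4745 to 7509 genes higher in YHSC and 1406 to 1556 higher in YCMP. The upper ends come from the fits with a single YCMP library, which is assumed to vary as the YHSC libraries do. Upper-quartile scaling moved the median of all genes from 0.33 to 0.52 and turned the medians of the cholesterol synthesis and mitochondrial lists above 0, to 0.14 and 0.17. Against transplanted HSCs the log2 difference reversed for Cd5l (-0.46), Cdkn2c (0.05), Cldn13 (-7.43), Mrc1 (-0.22), Rps19-ps1 and Rps19-ps2 (0.09 each), mt-Atp6 (0.47), mt-Atp8 (0.53), mt-Co2 (0.41) and mt-Co3 (0.43), and against OHSC for Cldn13 (-0.48). Ptprc, at -0.02, was 0.27 with transplanted HSCs, 0.11 with both HSC groups, 0.02 with the CPM filter, 0.04 with protein-coding genes and 0.17 with upper-quartile scaling. Il7r ranged from -1.24 to 0.63 with 1 library left out. The cause of these shifts was not tested.

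The replicate numbers did not pair the libraries: same-numbered deviations correlated at 0.0016. A fit with the replicate block called 5586 genes higher in YHSC and 1353 higher in YCMP, and turned the log2 difference of Il7r to 0.04. Among all values of 139 named genes, 2996 kept their direction and side of the threshold, 128 kept only their direction, 1 passed the threshold newly and 18 changed sign.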
